A study of Mus musculus with 6 samples.

Results

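The genes described here are 10 transcription factors of the islet endocrine lineage: Neurod1, Isl1, Pax6, Insm1, Rfx6, Rfx3, Myt1, St18, Glis3 and Fev. They are 10 of the 21887 mouse genes whose territories were measured, and all 10 passed the filter on low values that left 17711 genes for testing. A territory was the RefSeq span of the gene plus 10 kb on either side, and the measurement in it was the number of bases under ATAC-seq peaks. ATAC-seq marks open chromatin as the places where the Tn5 transposase can cut DNA. The libraries were 3 Chd4KO and 3 Control libraries, made from Tomato-positive mature β-cells sorted by flow from dispersed islets. The mice of both groups had received tamoxifen, and the submitters also call the mutants Chd4Db. The labels give neither the driver of the recombinase nor the strain and age of the mice. Nor do they say that the libraries came from separate animals, so the tests below measure the spread between these libraries, which may be technical.

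CHD4 is the ATPase of the NuRD complex, a machine that slides nucleosomes and also removes acetyl groups from histones. The 10 factors act in sequence and in parallel as islet endocrine cells form and mature. NEUROD1 is a basic helix-loop-helix protein that binds E-boxes, among them those of the insulin genes. ISL1 is a LIM homeodomain protein that carries the LDB1 cofactor to chromatin. PAX6 binds DNA through a paired domain and a homeodomain, and mouse islets need it to make hormones. INSM1, MYT1, ST18 and GLIS3 are zinc-finger proteins. RFX3 and RFX6 share the winged-helix domain of the RFX family, and FEV is an ETS-domain protein known from serotonergic neurons and from endocrine progenitors of the islet.

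Expression of the factors was not measured in these data, and the sequences at their starts differ. The sequences below are RefSeq windows of 250 bases before the annotated start and 50 from the start on, in assembly GRCm38.p6, read 5′ to 3′ along the gene's own strand. RefSeq windows were matched for 8 of the 10 members, which have 11 annotated starts among them. The first 3 belong to the members whose territory, or whose region over a matched window, was lower in Chd4KO libraries. Regions at an end of the Rfx6 and Insm1 spans were also lower but lay over no matched window. Their capitals mark the 50 bases that begin at the start.
Neurod1, chr2:79456587-79456886, minus strand: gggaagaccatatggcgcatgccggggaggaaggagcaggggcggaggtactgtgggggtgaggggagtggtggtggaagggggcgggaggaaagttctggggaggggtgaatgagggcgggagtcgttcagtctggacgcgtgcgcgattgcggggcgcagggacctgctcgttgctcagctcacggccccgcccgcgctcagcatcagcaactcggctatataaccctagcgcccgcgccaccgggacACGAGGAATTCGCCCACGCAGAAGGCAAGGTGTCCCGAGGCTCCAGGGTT
Myt1, chr2:181766779-181767078, plus strand: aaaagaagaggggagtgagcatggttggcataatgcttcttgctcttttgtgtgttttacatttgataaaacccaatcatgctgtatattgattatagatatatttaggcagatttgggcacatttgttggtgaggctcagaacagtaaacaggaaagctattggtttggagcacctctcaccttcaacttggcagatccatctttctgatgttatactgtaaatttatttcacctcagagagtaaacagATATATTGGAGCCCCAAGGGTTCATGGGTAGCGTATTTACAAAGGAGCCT
Glis3, chr19:28680028-28680327, minus strand: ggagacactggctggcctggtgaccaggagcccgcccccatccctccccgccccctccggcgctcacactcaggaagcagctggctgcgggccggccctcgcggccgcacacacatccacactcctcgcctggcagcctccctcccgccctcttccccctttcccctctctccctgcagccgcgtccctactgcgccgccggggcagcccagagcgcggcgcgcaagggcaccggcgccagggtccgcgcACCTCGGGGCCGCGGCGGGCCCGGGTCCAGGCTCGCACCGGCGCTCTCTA
G and C made up 66.7% of the Neurod1 window, 39.3% of the Myt1 window and 76.3% of the Glis3 window. All 300 bases of each lay under peaks in all 6 libraries.

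The next 4 windows are shown because they hold short motifs sought here, most of them named for the factors' own families, which the capitals mark.
Rfx3, chr19:28011117-28011416, minus strand: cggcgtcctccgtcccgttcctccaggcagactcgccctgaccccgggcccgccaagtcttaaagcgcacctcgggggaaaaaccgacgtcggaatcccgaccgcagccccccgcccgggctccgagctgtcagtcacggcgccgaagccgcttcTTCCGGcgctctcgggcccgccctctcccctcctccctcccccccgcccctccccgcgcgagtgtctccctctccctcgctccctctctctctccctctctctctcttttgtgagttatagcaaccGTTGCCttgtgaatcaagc
Rfx6, chr10:51685268-51685567, plus strand: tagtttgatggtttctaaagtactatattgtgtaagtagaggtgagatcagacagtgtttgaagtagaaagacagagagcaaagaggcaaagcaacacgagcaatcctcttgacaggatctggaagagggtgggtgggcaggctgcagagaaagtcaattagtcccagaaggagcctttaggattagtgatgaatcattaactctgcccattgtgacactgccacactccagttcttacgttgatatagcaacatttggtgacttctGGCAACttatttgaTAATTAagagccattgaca
Pax6, chr2:105668646-105668945, plus strand: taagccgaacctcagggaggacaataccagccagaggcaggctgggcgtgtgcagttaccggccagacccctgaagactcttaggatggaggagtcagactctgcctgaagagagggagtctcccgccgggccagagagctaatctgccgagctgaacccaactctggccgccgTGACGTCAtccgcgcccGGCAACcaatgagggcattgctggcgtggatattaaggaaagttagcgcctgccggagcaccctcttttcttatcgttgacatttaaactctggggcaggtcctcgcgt
Fev, chr1:74885359-74885658, minus strand: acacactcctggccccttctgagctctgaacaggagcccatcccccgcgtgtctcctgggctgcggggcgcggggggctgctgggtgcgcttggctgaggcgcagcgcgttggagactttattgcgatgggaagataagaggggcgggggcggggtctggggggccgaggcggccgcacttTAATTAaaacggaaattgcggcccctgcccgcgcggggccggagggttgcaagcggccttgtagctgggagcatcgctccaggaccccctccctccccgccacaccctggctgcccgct
The RFX core site GTTGCC, sought on both strands as were all motifs, occurred in these Rfx3, Rfx6 and Pax6 windows, so 3 of 11 member windows held it. It occurred in 12.5% of the 32851 promoter windows of the RefSeq table. In Rfx3 it began 31 bases after the start, in Rfx6 17 bases after it and in Pax6 59 bases before it. The homeodomain core TAATTA occurred in the Rfx6 and Fev windows and in 5.29% of all windows. Rfx3 also held the ETS core CCGGAA, found in 14.9% of all windows, and Pax6 the cyclic AMP response element TGACGTCA, found in 1.79%. None of the 7 motifs overlapped another of them in these windows. The E-box CAGATG, present in 17.2% of all windows, and TTCAGCACC, a core of the site of the neuronal repressor REST present in 0.371%, matched in 0 of the 11 member windows. AAAGTTT, a core bound by the MYT1 family and present in 4.74% of windows, matched in 1, at a Myt1 start that lay under no peak. These matches describe letters in the windows and were not tested for binding.

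Across the series the Chd4KO lists held 122730, 124125 and 119088 peaks and the Control lists 100109, 110693 and 101289, a ratio of means of 1.17. The groups did not overlap, and the exact two-sided permutation p was 0.1, the smallest that 3 against 3 libraries allow. Read depths are not given in the deposited lists, so the part of sequencing depth in that difference was not tested. Covered lengths were therefore scaled to the mean total of all libraries before testing. In the 10 territories together, 165, 177 and 155 deposited peaks lay in the Chd4KO libraries and 145, 174 and 154 in the Control libraries. The scaling lowered the median log2 fold change over all genes to -0.09, against 0.06 without it, and every direction below is read against that shift.

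Peaks lay in the territories of all 10 β-cell markers, the defining genes of the labelled cell type. After scaling, their summed covered length was 38253 to 39329 bp in Chd4KO libraries and 42801 to 48203 bp in Control libraries. Scaling lowered the lengths of every Chd4KO library and raised those of Control libraries 1 and 3, so this gap and the sums below depend on it. At a limma adjusted p under 0.05, 2 of the 10, Ins1 and Mafa, were lower. Ins1 still passed without scaling (adjusted p = 0.0058), Mafa did not (adjusted p = 0.057), and Pdx1 was then higher (adjusted p = 0.026). Acinar markers summed to 3578 to 3986 bp in Chd4KO and 2152 to 2375 bp in Control libraries, with 2 of the 3 that were tested, of 6, higher and Cpa1 and Pnlip listed at 0. Alpha-cell markers summed to 11201 to 11754 bp in Chd4KO and 12304 to 13722 bp in Control libraries, with 2 of 6 lower, and 1 of 3 delta-cell markers was lower. Of the duct and endothelial markers, 0 of 4 in each list passed, 1 of 3 leukocyte markers was lower and 1 of 2 mesenchymal markers was higher. Beside these counts, 14.6% of all genes tested were lower and 7.57% higher. The marker lists are short, and none of their shares was tested against those of all genes. In a sorted population, fewer cells of a type and less open chromatin per cell cannot be told apart. The part of these other cell types in the results below was not tested.

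Per kilobase, the territories differed in how much of them was open. Peaks as deposited covered 22.8% of the Pax6 territory in Chd4KO and 22.7% in Control libraries, the largest share among the 10. Insm1 followed with 18.1% in Chd4KO and 16.9% in Control libraries, and Neurod1 with 13.1 ± 1.63% in Chd4KO and 16.6 ± 0.920% in Control libraries (SD, n = 3 each). In Chd4KO libraries Isl1 had 12.2%, Fev 11.6% and Rfx6 9.96%, and in Control libraries Isl1 had 11.4%, Fev 8.98% and Rfx6 9.62%. The long genes had the least, with 6.82% at Glis3, 5.30% at Myt1, 4.42% at St18 and 3.34% at Rfx3 in Chd4KO libraries. In Control libraries Glis3 had 6.65%, Myt1 5.60%, St18 3.92% and Rfx3 3.36%. In Control libraries the neighbours Insm1 and Neurod1, and Rfx6 and Fev, differed by less than their SDs.

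After scaling, 2 of the 10 members, Neurod1 and Myt1, were lower in Chd4KO libraries at a limma adjusted p under 0.05, and 0 were higher. Over all genes tested, 14.6% were lower and 7.57% were higher by the same rule. The log2 fold change was negative at 8 members and positive at 2, with a median of -0.12, beside -0.09 for all genes. Without scaling, Isl1, Pax6, Insm1, Rfx6 and Glis3 turned positive. Every Chd4KO library lay below every Control library at 4 members, Neurod1, Pax6, Insm1 and Myt1, where 32.7% of all genes did so. In the unscaled lengths Neurod1 alone did, beside 9.68% of all genes, and Fev alone had every Chd4KO library above, beside 28.5%. After scaling, at 0 members did every Chd4KO library lie above, as 13.1% of all genes did, and 45.8% of all genes showed no overlap in either direction. The count of lower members was 1, Neurod1, when any 1 of the 6 libraries was left out, beside 840 to 2229 of all genes. It was 0 without scaling, a setting in which 2.88% of all genes were lower.

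**Figure D1:**
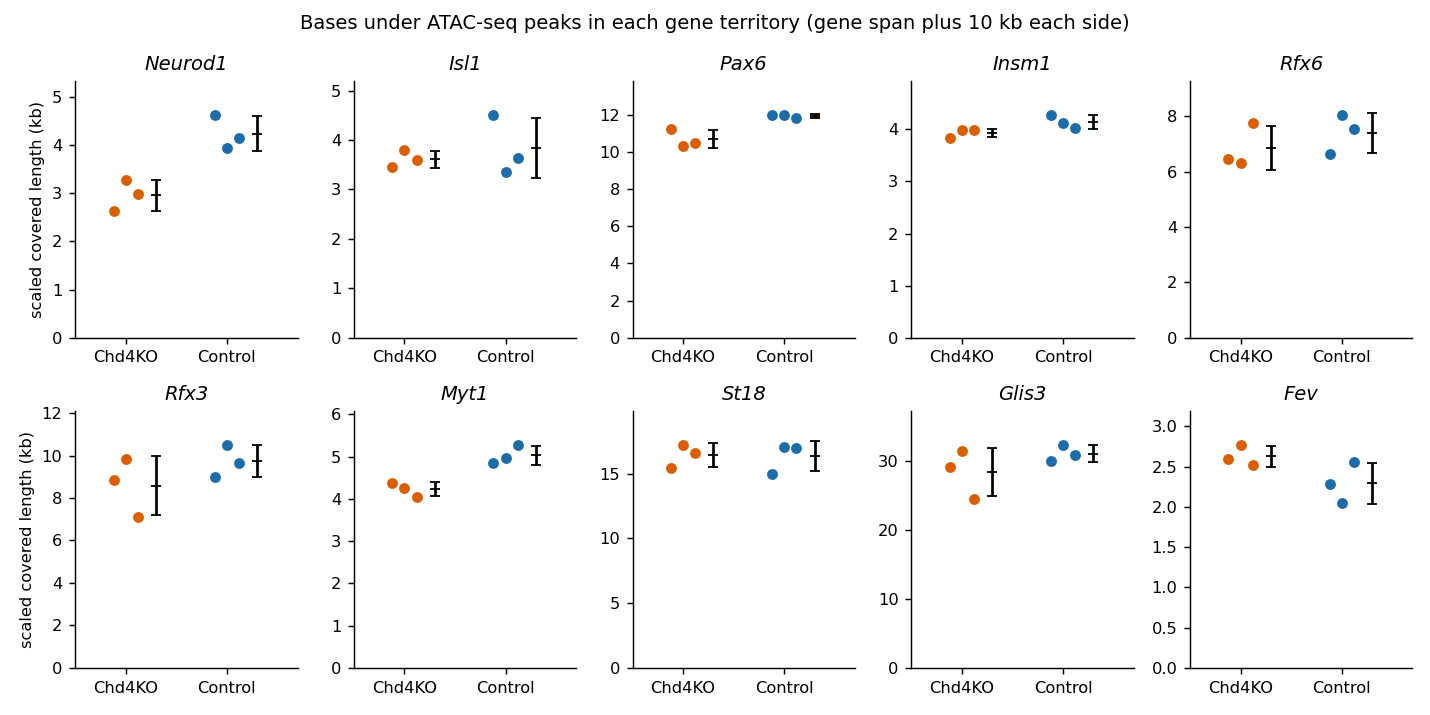
Scaled covered length in kb at each of the 10 territories, with 1 point per library, Chd4KO left of Control, and the mean and SD of 3 libraries per group. Neurod1, Pax6, Insm1 and Myt1 show no overlap between the groups, while the Fev points of Chd4KO lie mostly above those of Control.

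The 10 territories held 222 regions, formed by joining peaks of any library that overlapped by 1 bp. Regions called in all 6 libraries, here named shared, made up 106 of them (47.7%), beside 48.0% of the 156745 regions of the series. Gained regions, called in all 3 Chd4KO and 0 Control libraries, numbered 5 (2.25%), beside 10.3% in the series. Lost regions, called in all 3 Control and 0 Chd4KO libraries, numbered 3 (1.35%), beside 2.62%. The remaining 108 (48.6%) were called in part of the libraries, beside 39.0% in the series. More Chd4KO than Control libraries called 50 of those (46.3%), beside 54.5% in the series. More Control libraries called 45 (41.7%), beside 37.0%, and 13 were called equally often. The gained count was 12 (5.48%) without Chd4KO library 3, where the series had 13.1%, and 15 (7.21%) without Control library 2, where it had 12.6%. It was 8 (3.65%) without Control library 3, beside 11.1% in the series, and the lost count was 7 (3.21%) without Control library 1, beside 3.97%. Lengths of single regions are given below as deposited, and their log2 fold changes are scaled.

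Among the 106 shared regions, 2 were wider in Chd4KO libraries and 13 narrower at a limma adjusted p under 0.05. That is 1.89% and 12.3% of them, beside 3.29% higher and 12.8% lower over the 75312 shared regions of the series. Their median log2 fold change was -0.12, beside -0.11 over all shared regions, and 86 of the 106 were negative. Every Chd4KO library lay below every Control library at 41 of them and above at 3, beside 39.6% and 7.61% of all shared regions. The count of lower regions was 22 without Control library 2, where 17286 of the 75312 were lower. It was 3 to 6 without each of the other 5 libraries in turn, beside 2823 to 3893 over the series. The count of higher ones was 0 without Chd4KO library 1, beside 987 over the series. It was 1 without 4 of the other libraries, beside 1147 to 2909. Of the 15 called regions, 14 missed the threshold without at least 1 of the 6 libraries, with adjusted p up to 0.111, and 12 missed it without scaling, where 2.77% of all shared regions were lower. The 3 that passed without scaling were 1 in Rfx3 (lower), 1 beside St18 and 1 in Glis3 (both higher).

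**Figure D2:**
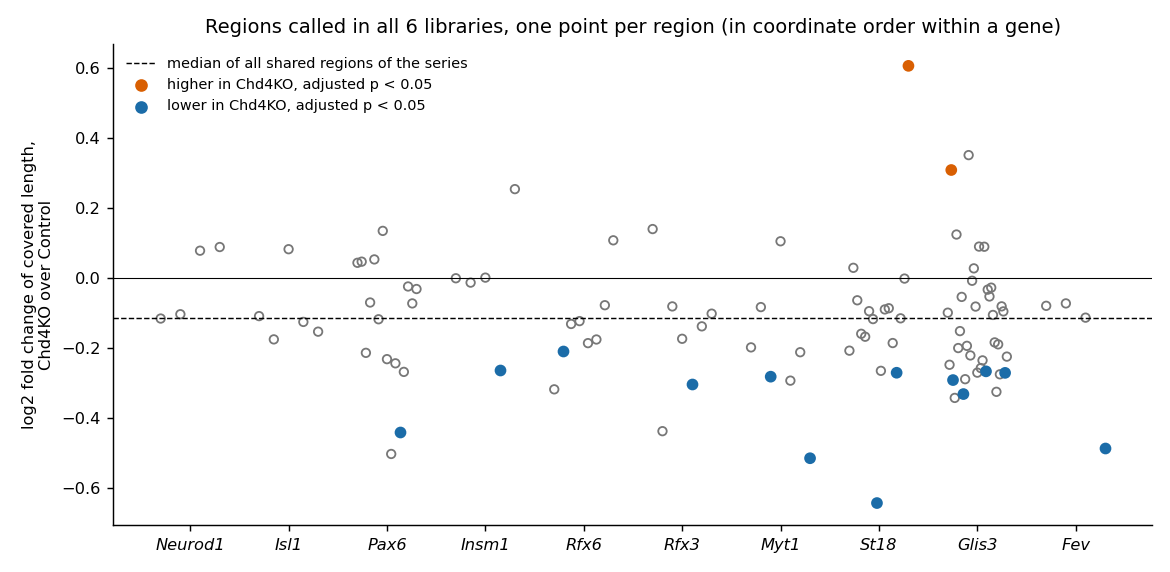
Log2 fold change of scaled covered length, Chd4KO over Control, for the 106 shared regions, 1 point per region grouped by gene. Filled points passed a limma adjusted p of 0.05 and the dashed line is the median of all shared regions in the series, -0.11; most points of each gene but Neurod1 lie below 0.

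Neurod1, at chr2:79452637-79456636 on the minus strand (gene ID 18012), activates insulin transcription and is needed for mature mouse β-cells. Its scaled covered length was 2626, 3275 and 2981 bp in the Chd4KO libraries and 4639, 3939 and 4150 bp in the Control libraries. All 3 Chd4KO libraries lay below the lowest Control library. The log2 fold change was -0.48 ± 0.09 (SE, limma adjusted p = 0.013), and it stayed between -0.55 and -0.40 with each library left out, with adjusted p of 0.018 to 0.044. Without scaling it was -0.32, with an adjusted p of 0.057. With only the 50000 strongest peaks of each library it was 0.01, with an adjusted p of 0.93.

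The start of Neurod1 did not carry the difference. The region over the window printed above, chr2:79456351-79457261, covered 861, 876 and 911 bp in Chd4KO and 897, 803 and 893 bp in Control libraries as deposited. Its scaled log2 fold change was -0.10 (limma adjusted p = 0.30). The authors' -log10 q of its peaks ranked it at percentiles 90.1 to 93.4 of each Chd4KO list and 92.8 to 94.3 of each Control list, so it was among the stronger peaks of every library. Together the 4 shared regions of the territory spanned 2535 ± 232 bp in Chd4KO and 2313 ± 104 bp in Control libraries before scaling (SD, n = 3 each). After scaling they differed by -66.8 bp, or -1.57% of the Control mean.

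The lower covered length of Neurod1 lay in weaker regions. The lost region chr2:79442933-79443536 lies 9101 bp from the gene on its downstream side, and its peaks covered 0, 0 and 0 bp in Chd4KO and 530, 401 and 355 bp in Control libraries. In the Control lists its -log10 q ranked between percentiles 0.454 and 18.3, so these are weak peaks. It accounted for a difference of -457 bp, or -10.8% of the Control mean. Inside the gene, the region chr2:79453884-79454754, centred 2317 bp after the start, covered 0, 519 and 318 bp in Chd4KO and 803, 814 and 748 bp in Control libraries. The region next to it, chr2:79454950-79455436, covered 204, 487 and 0 bp in Chd4KO and 457, 465 and 440 bp in Control libraries. Each was called in all 3 Control and in 2 Chd4KO libraries. Along with 1 further region, seen in Chd4KO library 1 alone, these partly called regions made up -758 bp, or -17.9% of the Control mean.

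**Figure D3:**
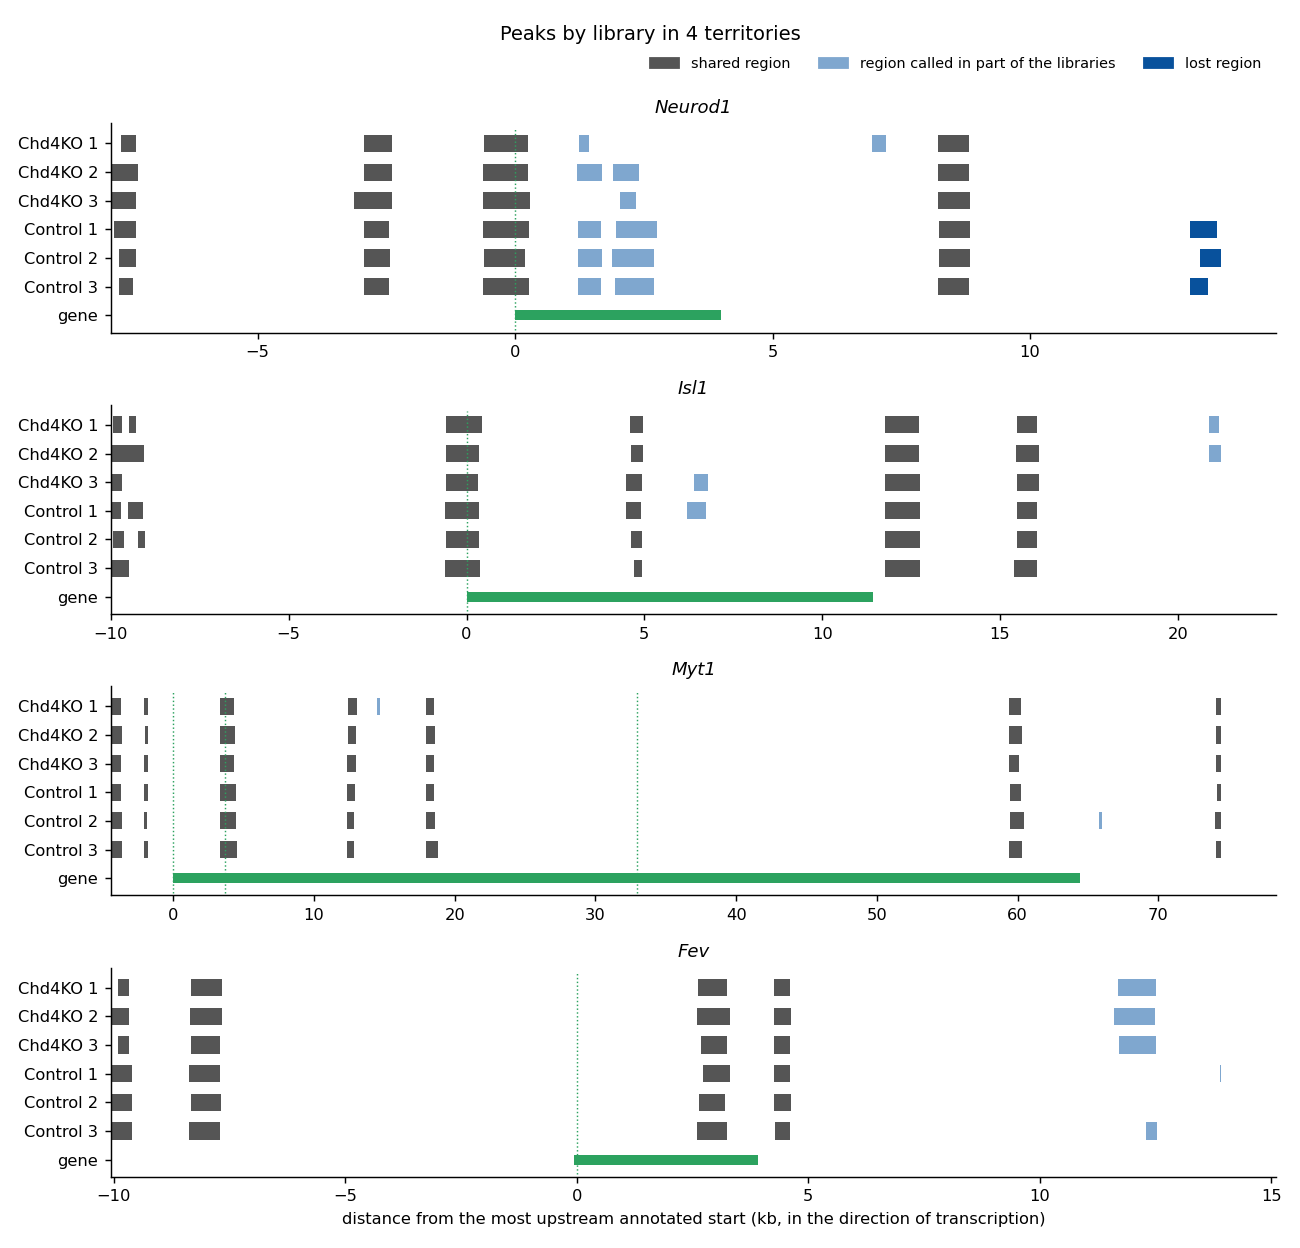
Peaks of each library, Chd4KO above Control, along the Neurod1, Isl1, Myt1 and Fev territories, with distance from the most upstream annotated start in kb on the x axis, the gene span below and dotted lines at annotated starts. At Neurod1 the lost region stands in the 3 Control rows alone, and at Fev a wide downstream region is called in all 3 Chd4KO rows and in 1 Control row.

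Isl1, at chr13:116298270-116309688 on the minus strand, keeps postnatal mouse β-cells functional through its LIM partners. Scaled peaks covered 3451, 3794 and 3587 bp in Chd4KO and 4517, 3359 and 3637 bp in Control libraries. The groups overlapped, since Control library 1 was the highest and Control library 2 the lowest of the 6. The log2 fold change was -0.07 ± 0.10 (limma adjusted p = 0.63), and 0.04 without Control library 1. The start region chr13:116309260-116310300 spanned 1015, 944 and 924 bp in Chd4KO and 964, 946 and 961 bp in Control libraries, a scaled log2 fold change of -0.13 (limma adjusted p = 0.13). It was the strongest start region of the set, at percentiles 97.4 to 97.7 in Chd4KO and 97.5 to 97.7 in Control lists. None of its 7 regions was gained or lost.

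Pax6, at chr2:105668896-105698410 on the plus strand, also governs eye development, and part of Elp4 lies in its territory. After scaling, peaks covered 11226, 10313 and 10500 bp in Chd4KO and 12018, 12021 and 11810 bp in Control libraries. The groups did not overlap, and the log2 fold change was -0.16 ± 0.06 (limma adjusted p = 0.075). Without scaling it was 0.01. It was called lower with the 50000 strongest peaks (-0.25, adjusted p = 0.026) and with 50 kb on either side (-0.17, adjusted p = 0.041). The 2 annotated starts differed in their values. The region over the first, chr2:105668282-105669150, covered 869, 756 and 755 bp in Chd4KO and 474, 803 and 769 bp in Control libraries, a scaled log2 fold change of 0.05 (limma adjusted p = 0.77). The region over the second, chr2:105681348-105682612, covered 936, 665 and 484 bp in Chd4KO and 1076, 932 and 912 bp in Control libraries, a scaled log2 fold change of -0.50 ± 0.15 (limma adjusted p = 0.059).

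A broad region inside Pax6, chr2:105686878-105688669, was narrower in Chd4KO libraries. It covered 1020, 1423 and 1444 bp in Chd4KO and 1460, 1792 and 1713 bp in Control libraries, and the log2 fold change was -0.44 ± 0.11 (limma adjusted p = 0.039). Without scaling this was -0.30, with an adjusted p of 0.21, and the call was lost when any 1 of 5 of the libraries was left out. The gained region chr2:105705279-105705835, 6869 bp beyond the gene and at Elp4, covered 394, 202 and 452 bp in Chd4KO and 0 bp in each Control library. Its -log10 q ranked at percentiles 5.82 to 23.6 of the Chd4KO lists.

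Insm1, at chr2:146221997-146225020, encodes a zinc-finger repressor of endocrine and neuroendocrine cells, and Cfap61 shares its territory. Its scaled covered length was 3834, 3979 and 3982 bp in Chd4KO and 4285, 4116 and 4025 bp in Control libraries. The groups did not overlap, though the highest Chd4KO and the lowest Control library were close, and the log2 fold change was -0.07 ± 0.06 (limma adjusted p = 0.38). It was called lower with the 50000 strongest peaks (-0.34, adjusted p = 0.030), with 5 kb on either side (-0.24, adjusted p = 0.038) and with 50 kb (-0.21, adjusted p = 0.043), but was positive without scaling. One region held most of the open bases: chr2:146221184-146223803, 2620 bp wide over one end of the gene. It covered 2274, 2299 and 2251 bp in Chd4KO and 2605, 2432 and 2410 bp in Control libraries, and the log2 fold change was -0.26 ± 0.07 (limma adjusted p = 0.039). Without scaling this was -0.11, with an adjusted p of 0.11, and leaving out any 1 of 5 of the libraries ended the call.

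Rfx6, at chr10:51677760-51730429 on the plus strand, is needed for islet cells other than pancreatic polypeptide cells to form in mice. The scaled covered length was 6467, 6314 and 7762 bp in Chd4KO and 6621, 8063 and 7529 bp in Control libraries. The groups overlapped, and the log2 fold change was -0.11 ± 0.10 (limma adjusted p = 0.43). It lay between -0.20 without Chd4KO library 3 and -0.05 without Control library 2. The region over the annotated start, chr10:51685003-51685916, covered 709, 622 and 703 bp in Chd4KO and 539, 820 and 726 bp in Control libraries, a scaled log2 fold change of -0.13 (limma adjusted p = 0.35). A wider region at the upstream end of the span, chr10:51677199-51678682, covered 1292, 1308 and 1280 bp in Chd4KO and 1322, 1484 and 1318 bp in Control libraries. Its log2 fold change was -0.21 ± 0.04 (limma adjusted p = 0.017), but -0.07 without scaling, with an adjusted p of 0.36, and it missed the threshold without Chd4KO library 1 or 2.

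Rfx3, at chr19:27761721-28014669 on the minus strand, directs genes of cilia and is needed for mouse β-cells to mature. After scaling, its peaks covered 8850, 9814 and 7086 bp in Chd4KO and 9005, 10510 and 9658 bp in Control libraries. The groups overlapped, with Chd4KO library 3 the lowest, and the log2 fold change was -0.18 ± 0.12 (limma adjusted p = 0.27). It lay between -0.28 without Chd4KO library 2 and -0.06 without Chd4KO library 3. Rfx3 held 3 of the 5 gained regions and 1 of the 3 lost ones, all inside the gene. The widest gained region, chr19:27992639-27993334, covered 549, 677 and 676 bp in Chd4KO and 0 bp in each Control library, and its -log10 q ranked at percentiles 40.2 to 42.6 of the Chd4KO lists. Another, chr19:27777519-27777777, covered 217, 259 and 207 bp in Chd4KO libraries, and chr19:27907040-27907252 covered 213, 200 and 206 bp. The lost region chr19:27988086-27988369 covered 0 bp in each Chd4KO and 252, 280 and 216 bp in Control libraries, so it and the widest gained region lie within a few kilobases of each other.

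In Rfx3 the gains were smaller than the decreases after scaling. Gained regions added 10.4% of the Control mean, while the lost region took -2.72%, the partly called regions -10.0% and the shared regions -9.34%. As deposited, the shared regions spanned 5664 ± 610 bp in Chd4KO and 5878 ± 136 bp in Control libraries (SD, n = 3 each). The share of the shared regions therefore depended on the scaling, and without it the log2 fold change of the territory was -0.02 (limma adjusted p = 0.95). The shared region chr19:27904109-27905287 was narrower, with 966, 882 and 892 bp in Chd4KO and 1056, 1073 and 1074 bp in Control libraries. Its log2 fold change was -0.30 ± 0.05 (limma adjusted p = 0.016) and -0.17 without scaling (adjusted p = 0.039). It had an adjusted p of 0.050 without Control library 3. The start region chr19:28010423-28012357 covered 1911, 1917 and 1686 bp in Chd4KO and 1725, 1794 and 1796 bp in Control libraries, a scaled log2 fold change of -0.10 (limma adjusted p = 0.19).

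Myt1, at chr2:181763332-181827775 on the plus strand, is a zinc-finger factor of neural and endocrine progenitors in mice, and Pcmtd2 reaches into its territory. Its scaled covered length was 4373, 4256 and 4044 bp in Chd4KO and 4849, 4958 and 5279 bp in Control libraries. The groups did not overlap, and the log2 fold change was -0.24 ± 0.06 (limma adjusted p = 0.033). With each library left out it lay between -0.26 and -0.20, and the adjusted p between 0.053 and 0.11, so each of the 6 libraries was needed for the call. Without scaling the log2 fold change was -0.08 (adjusted p = 0.49), and with 50 kb on either side it was -0.05 (adjusted p = 0.60). With the 50000 strongest peaks it was -0.53 (adjusted p = 0.025). With the territory kept to the bases nearer to Myt1 than to its neighbours it was -0.22 (adjusted p = 0.072), a setting chosen after the data were seen.

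Unlike at Neurod1, the scaled difference at Myt1 lay in shared regions, which took -15.9% of the Control mean. As deposited, these regions spanned 4395 ± 220 bp in Chd4KO and 4651 ± 211 bp in Control libraries (SD, n = 3 each). The size of their share therefore depended on the scaling. Of the 3 annotated starts of Myt1 only the one printed above lay under peaks. The region over it, chr2:181766615-181767824, covered 993, 1103 and 1006 bp in Chd4KO and 1158, 1170 and 1205 bp in Control libraries. Its log2 fold change was -0.28 ± 0.05 (limma adjusted p = 0.018), and -0.15 without scaling (adjusted p = 0.077). It missed the threshold without Chd4KO library 1, Control library 1 or Control library 3. The region chr2:181837383-181838712, 9608 bp beyond the gene at Pcmtd2, crosses the edge of the territory, and as a whole it covered 802, 818 and 809 bp in Chd4KO and 953, 1328 and 1198 bp in Control libraries. Its log2 fold change was -0.52 ± 0.08 (limma adjusted p = 0.010), the one call among the 15 that held without each library in turn. Without scaling it was -0.39 (adjusted p = 0.068). Within the territory lie 393 of its 1330 bp, and there it covered 331, 354 and 355 bp in Chd4KO and 279, 393 and 362 bp in Control libraries. Those values overlapped and made up -37.7 bp of the -799 bp that shared regions differed by after scaling, so the narrowing of this region lay mostly outside the Myt1 territory.

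**Figure D4:**
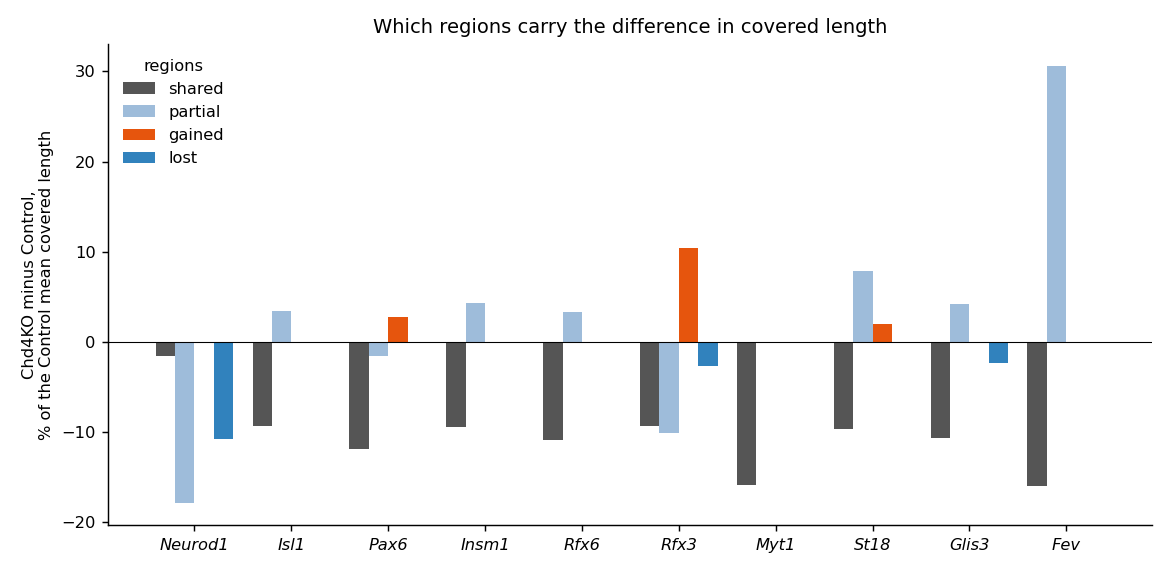
Difference in scaled covered length, Chd4KO minus Control, as a percent of each member's Control mean, split into shared, gained, lost and partly called regions. At Neurod1 the bars of the lost and partly called regions reach -10.8% and -17.9%, at Myt1 the bar of shared regions reaches -15.9%, and at Fev the bar of partly called regions reaches 30.6%.

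St18, at chr1:6487231-6860940, is the MYT1-family member also called Myt3. Peaks covered, after scaling, 15422, 17241 and 16598 bp in Chd4KO and 15014, 17094 and 17014 bp in Control libraries. The groups overlapped, and the log2 fold change was 0.01 ± 0.07 (limma adjusted p = 0.96). Beneath that scaled total, shared regions took -9.60% of the Control mean, while partly called regions added 7.90% and the gained region 1.99%. As deposited, the shared regions spanned 12332 ± 436 bp in Chd4KO and 12432 ± 492 bp in Control libraries (SD, n = 3 each). Their -9.60% therefore depended on the scaling. The gained region chr1:6706134-6706519, inside the gene, covered 364, 312 and 357 bp in Chd4KO and 0 bp in each Control library. A further 5 regions were called in all 3 Chd4KO libraries and in 1 Control library. The widest of them, chr1:6623967-6624921, covered 913, 825 and 813 bp in Chd4KO and 0, 229 and 0 bp in Control libraries.

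Shared regions of St18 moved in both directions. The region chr1:6866544-6867536, 5604 bp beyond the gene, covered 722, 622 and 678 bp in Chd4KO and 258, 265 and 371 bp in Control libraries. Its log2 fold change of 0.61 ± 0.11 (limma adjusted p = 0.016) was the highest among the 106 shared regions. It was 0.71 without scaling (adjusted p = 0.014), and its adjusted p was 0.051 without Chd4KO library 1. The region chr1:6733497-6734227, inside the gene, had the lowest value of the 106, -0.64 ± 0.16 (limma adjusted p = 0.036). It covered 279, 615 and 317 bp in Chd4KO and 680, 697 and 717 bp in Control libraries, so Chd4KO library 2 stood near the Control level. The region chr1:6768398-6769288 covered 604, 675 and 593 bp in Chd4KO and 652, 780 and 754 bp in Control libraries, with -0.27 ± 0.07 (limma adjusted p = 0.036). Neither lower region passed without scaling, and leaving out any 1 of 5 libraries ended the first call and any 1 of 4 the second.

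Glis3, at chr19:28258851-28680265 on the minus strand, activates the insulin gene and is a diabetes gene in people and mice. With 81 regions it held the most of the 10. Its scaled covered length was 29151, 31448 and 24598 bp in Chd4KO and 30071, 32429 and 30916 bp in Control libraries. The groups overlapped, with Chd4KO library 3 the lowest of the 6, and the log2 fold change was -0.14 ± 0.09 (limma adjusted p = 0.28). It lay between -0.21 without Chd4KO library 2 and -0.04 without Chd4KO library 3. The lost region chr19:28465885-28466728, inside the gene, covered 0 bp in each Chd4KO and 614, 626 and 844 bp in Control libraries. Its -log10 q ranked at percentiles 22.9 to 37.8 of the Control lists, above the lost region of Neurod1.

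The start region of Glis3, chr19:28679218-28680448, was narrower in Chd4KO libraries. It covered 1085, 1128 and 943 bp in Chd4KO and 1137, 1196 and 1221 bp in Control libraries, and the log2 fold change was -0.27 ± 0.06 (limma adjusted p = 0.025). Without scaling this was -0.14 (adjusted p = 0.21). Inside the gene, chr19:28330792-28331817, chr19:28416364-28417420 and chr19:28579713-28580549 were narrower in Chd4KO libraries, with log2 fold changes of -0.29, -0.33 and -0.27 and limma adjusted p of 0.042, 0.021 and 0.032. One region, chr19:28309645-28310137, was wider, with 490, 493 and 434 bp in Chd4KO and 318, 280 and 256 bp in Control libraries. Its log2 fold change was 0.31 ± 0.08 (limma adjusted p = 0.036) and 0.40 without scaling (adjusted p = 0.022). Each of these 5 Glis3 calls ended when any 1 of 3 to 5 of the libraries was left out.

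Fev, at chr1:74881501-74885473 on the minus strand, had the highest log2 fold change of the 10, and Cryba2 shares its territory. Scaled peaks covered 2600, 2773 and 2518 bp in Chd4KO and 2282, 2047 and 2556 bp in Control libraries. The groups overlapped through Chd4KO library 3 and Control library 3, and the log2 fold change was 0.18 ± 0.08 (limma adjusted p = 0.15). Leaving out 1 library at a time moved it between 0.11 without Control library 2 and 0.25 without Control library 3. Without scaling it was 0.33 (adjusted p = 0.028), and with the territory kept to the bases nearer to Fev than to its neighbours, a setting chosen after the data were seen, it was 0.54 (adjusted p = 0.018). With 5 kb on either side it was -0.09, and with the 50000 strongest peaks it was -1.31 ± 0.74 (SE, limma adjusted p = 0.30). The annotated start printed above lay under no peak in any of the 6 libraries, so the open regions of the territory lie elsewhere.

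One region set the value of Fev. The region chr1:74872878-74873809, 7692 bp beyond the downstream end of the gene, covered 834, 883 and 809 bp in Chd4KO and 0, 0 and 233 bp in Control libraries. It was called in all 3 Chd4KO libraries and in Control library 3, at percentile 1.49 of that list, and so was not counted as gained. After scaling, partly called regions added 30.6% of the Control mean at Fev, while shared regions took -16.0%. As deposited, the shared regions spanned 1945 ± 168 bp in Chd4KO and 2069 ± 26.5 bp in Control libraries (SD, n = 3 each), so the size of their share depended on the scaling. The shared region chr1:74895011-74895513, at Cryba2, covered 253, 424 and 243 bp in Chd4KO and 497, 481 and 486 bp in Control libraries, and the log2 fold change was -0.49 ± 0.11 (limma adjusted p = 0.032). Without scaling this was -0.39 (adjusted p = 0.11), and the call ended when any 1 of 4 of the libraries was left out.

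**Figure D5:**
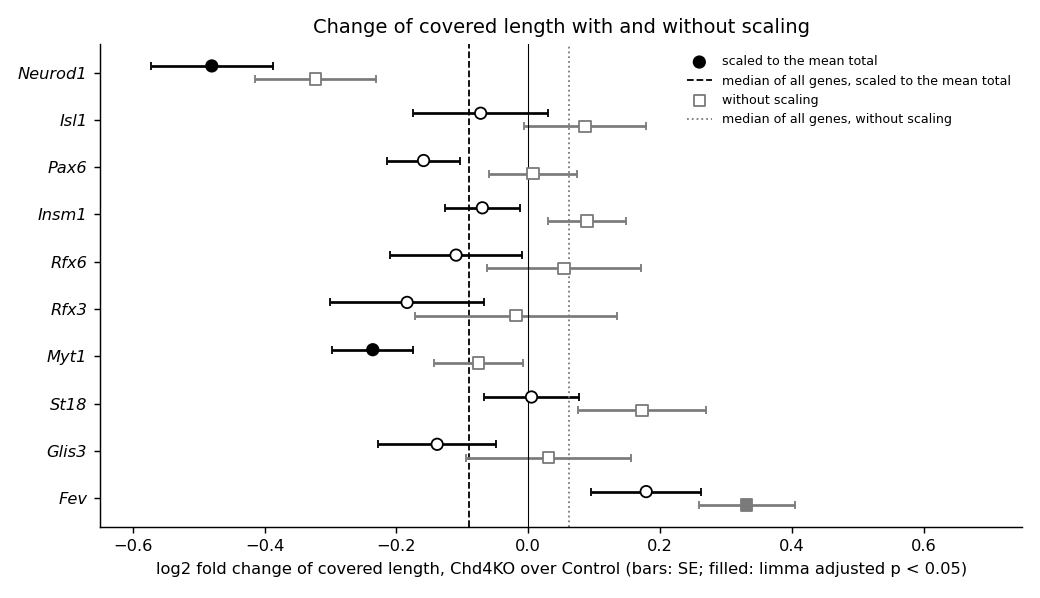
Log2 fold change of covered length, Chd4KO over Control, for the 10 members with scaling and without it, with SE bars and filled points where the limma adjusted p was under 0.05. Vertical lines mark the median of all genes, -0.09 with scaling and 0.06 without, and Neurod1 lies left of both medians in both settings.

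Genes that work with the 10 factors were read in the same fit. Of 30 further transcription factors of the endocrine lineage, 28 were tested. Of these 3 (10.7%) were lower and 1 (3.57%) was higher, both shares below the 14.6% and 7.57% of all genes, with a median log2 fold change of -0.05 and Pax4 listed at 0. The lower ones were Mafa, an activator of insulin in mature β-cells (-0.46, limma adjusted p = 0.010), Six3 (-0.45, adjusted p = 0.016) and Nkx6-2 (-0.36, adjusted p = 0.026). The higher one was Hnf4a, a nuclear receptor also prominent in liver (0.56, limma adjusted p = 0.0046). Of 25 genes of the secretory apparatus of endocrine cells, 4 (16.0%) were lower and 0 higher, with a median of -0.11, a share close to the 14.6% of all genes. They were Pcsk2, a prohormone convertase (-0.22, limma adjusted p = 0.037), Nnat (-0.23, adjusted p = 0.038), Scg3 (-0.35, adjusted p = 0.042) and Chga, a granule protein (-0.33, adjusted p = 0.044). Without scaling none of the 4 secretory genes and none of the 3 lower lineage factors passed, and Hnf4a did (adjusted p = 0.0064).

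Relatives of the 10 factors that serve mainly other tissues were the third list. Of these 25 genes 4 (16.0%) were higher and 3 (12%) lower, beside 7.57% and 14.6% of all genes, with a median log2 fold change of 0.01. Higher were Erg, an ETS factor of endothelium (0.90, limma adjusted p = 0.0054), Rfx4 (0.32, adjusted p = 0.022), Neurog1, a neural helix-loop-helix factor (1.03, adjusted p = 0.037) and Glis1 (0.29, adjusted p = 0.037). Scaled peaks at Neurog1 covered 711, 667 and 694 bp in Chd4KO and 0, 335 and 300 bp in Control libraries. The Control mean of 212 bp lay below the 300 bp filter, which Neurog1 passed only through its Chd4KO values, so its call gives no support to a direction. Lower were Isl2, a LIM homeodomain factor of motor neurons (-0.53, limma adjusted p = 0.0064), Insm2 (-0.25, adjusted p = 0.028) and 1 further gene. Without scaling the 4 higher genes and Isl2 passed, and Insm2 (adjusted p = 0.20) and the further gene did not. The 3 lists share libraries and control samples with the 10 members, and no difference between the lists was tested.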

How the data were processed

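ATAC-seq libraries from 3 Chd4KO and 3 Control samples of sorted β-cells were used as deposited: 1 peak list per library, not pooled. The lists are in mm10, per the submitters' processing notes, and their deposited names mark MACS2 peaks from shifted cutting sites. No source used here names the aligner, the version of the peak caller or its filters. For each peak the authors' file gives a display score, a fold enrichment over background as a ratio, and a p-value and q-value as −log10, all without read counts, so the depth behind a value is unknown. Only peak positions and the deposited −log10 q were used.

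Peaks were measured as covered bases in each gene's RefSeq span (GRCm38.p6, the assembly that mm10 names) plus 10 kb on either side, and scaled to the mean total of the 6 libraries. The test was limma (version 3.58.1, run in R 4.3.3), with the trend of variance on intensity, on log2(scaled bases + 300 bp), for 17711 genes with a mean of at least 300 bp, with Benjamini-Hochberg adjustment over all of them and a threshold of 0.05. A second fit took the 75312 regions called in all 6 libraries. Folds are on that log2(value + pseudocount) scale and understate changes of low values. Per-region lengths are printed unscaled. The fits were also run on simulated data, drawn independently for each gene or region with no shift shared by a whole library. That run could not bear on how the calls depend on scaling. The alternatives were no scaling, scaling to shared regions, stronger peaks, other flanks, pseudocounts and filters, other ways to form regions, each library left out, a replicate block and, added after the data were seen, territories limited by the neighbouring genes.

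Described are all 10 members, every gained or lost region, every shared region past the threshold and the region over each start of the 8 members with a RefSeq promoter window, with the 6 passing genes of smallest adjusted p, at most, of each partner list. The members and lists were chosen with earlier results of these data known, so they give no independent support to a direction.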

Additional observations from a re-analysis of the deposited data

How the results depend on the processing

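Without scaling, 2586 genes were higher and 510 lower in Chd4KO libraries, 1 member was higher (Fev) and 0 lower, and 2085 shared regions of the series and 1 of the members were lower. The log2 fold changes of Isl1 (0.0861), Pax6 (0.0075), Insm1 (0.0893), Rfx6 (0.054) and Glis3 (0.0309) were then positive, none past the threshold. With scaling to bases within shared regions the counts were 2564 genes higher and 683 lower, 1 member higher and 1 lower, and 2331 shared regions of the series and 2 of the members lower, and Isl1 (0.0687), Insm1 (0.072), Rfx6 (0.0363) and Glis3 (0.0124) were positive. With the 50000 strongest peaks, 3 members (Pax6, Insm1 and Myt1) were lower, beside 1543 of all genes. In that setting 40 member regions (50.0%) were shared, beside 49.8% in the series. Neurod1 (0.0075), St18 (-0.0139) and Fev (-1.31) changed sign there. St18 (-0.0236) and Fev (-0.0944) did so with 5 kb of flank and Isl1 (0.0264) with 50 kb. With 50 kb, 13 regions (4.47%) were gained, beside 10.3% in the series, and 5 (1.72%) lost, beside 2.62%. The lower members were Neurod1, Insm1 and Myt1 with 5 kb, beside 2501 of all genes, and Neurod1, Pax6 and Insm1 with 50 kb, beside 2457. Limiting territories by their neighbours gave 1 member higher and 1 lower, beside 1246 of all genes higher and 1904 lower. Gained regions numbered 9 (4.41%, beside 11.1% in the series) with a −log10 q of at least 5. They numbered 8 (3.16%, beside 10.1%) when joined from summits, with 5 lost (1.98%, beside 2.85%). They numbered 11 (4.95%, beside 11.9%) when a peak had to cover 50% of the region.

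The labels do not say whether the replicate numbers pair the libraries. Deviations of same-numbered libraries correlated by 0.13, 0.09 and -0.03. The best match had the same number for replicates 1 and 2 but not for 3, so these values do not settle whether the libraries were paired. With the replicate block 1 member was lower (Neurod1), and Myt1 missed the threshold (limma adjusted p = 0.069). In that fit 1439 shared regions of the series were higher and 4865 lower, and of the members' regions 1 was higher and 8 lower.

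Leaving out each library in turn gave 676 to 1159 genes higher and 840 to 2229 lower, and 1 member lower each time. Of the shared regions of the series, 987 to 2909 were higher and 2823 to 17286 lower. Of the members' regions, 0 to 2 were higher and 3 to 22 lower. Gained regions numbered 5 to 15 (2.37% to 7.21%, beside 11.1% to 13.1% in the series). Lost regions numbered 3 to 7 (1.37% to 3.21%, beside 3.16% to 3.97%). Isl1 ranged from -0.156 to 0.0425 and St18 from -0.0552 to 0.0487; Rfx3 (-0.283 to -0.0567), Glis3 (-0.215 to -0.0393), Rfx6 (-0.199 to -0.0481) and Fev (0.109 to 0.251) kept their sign. The cause of these shifts was not tested. The lists hold no read counts, so how far depth sets which weak regions were called was not tested.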
